A study of Mus musculus with 2 samples.

Results

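The immediate early genes of the AP-1 and Egr families were followed with RNA-seq in GFP-positive cells, dissociated and then sorted out of whole mouse pancreata at e15.5, from embryos carrying NGN3-EGFP. The group held 10 genes of the 23284 symbols in the count table, chosen by name: Fos, Fosb, Fosl2, Jun, Junb, Jund, Egr1, Egr2, Ier2 and Atf3. All samples, replicates 1 and 2, belonged to 1 group with no treatment named, and the strain was labelled as mixed, C57BL6. The labels do not say how the NGN3-EGFP reporter was built, how many embryos were pooled, or whether the replicates were separate litters, and the spread between them may therefore be technical. No condition could be compared, and each comparison below is between genes within a library or between these libraries.

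Immediate early genes are transcribed within minutes of a stimulus from transcription factors already present in the cell, and their mRNAs are short-lived. Jun proteins pair with each other or with Fos proteins through leucine zippers to form the dimeric factor AP-1, while Fos proteins need a Jun partner to bind DNA. Egr proteins bind DNA through zinc fingers. These genes are known to respond to growth factors, to membrane depolarisation and also to the enzymatic dissociation and sorting of tissue. The labels give no sample of undissociated tissue, so levels present in the embryo and levels reached during preparation cannot be told apart.

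The libraries held 12495143 and 12043734 counted reads. Defining transcripts of the endocrine lineage were present, with 10 of 10 marker genes at 1 CPM or more in both libraries, where CPM is the read count scaled to a fixed library size (counts-per-million), and a summed level of 10394 and 10453 CPM in replicates 1 and 2. Chgb alone gave 5381 and 5786 CPM of this sum. Of all symbols in the count table, 45.7% reached 1 CPM in both libraries. Summed levels of markers of other cells in replicates 1 and 2 were 1754 and 1315 CPM for 10 acinar genes, 674 and 619.9 CPM for 7 duct genes, 422 and 138 CPM for 9 mesenchymal genes, 251 and 114 CPM for 7 neural crest genes, 56.9 and 18.4 CPM for 8 immune genes, 15.9 and 5.62 CPM for 8 endothelial genes, and 0.241 and 2.89 CPM for 7 erythroid genes. The highest marker of each list was Chgb (endocrine), Ctrb1 (acinar), Krt7 (duct), Col1a2 (mesenchyme), Ret (neural crest), Laptm5 (immune), Cdh5 (endothelium) and Alas2 (erythroid). Ctrb1, at 1321 and 986 CPM, lay above each endocrine marker except Chgb and made up most of the acinar sum. Of the 10 acinar genes 7 reached 1 CPM in both libraries, and Ptf1a had 0 and 3 reads. Cells were pooled before sequencing, so these averages cannot show which cells held a transcript, and fewer cells with a transcript cannot be told apart from less of it per cell.

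Signals reach these promoters through DNA elements such as the cyclic AMP response element (CRE), bound by CREB and ATF proteins, and the CArG box, bound by serum response factor. RefSeq promoter windows on GRCm38.p6, from 250 bases before to 50 bases after an annotated start, were examined for 8 of the 10 genes. The promoter of Egr1 is not reported here, and no window was available for Ier2. The letters TGACG, the half-site of the CRE, were found on either strand in 5 of the 8, each time upstream of the start. Of all windows 20.8% held these letters, and of all genes 23.1% had a window that did. For each of the 5 genes the match nearest to 1 annotated start is shown to let the sites be compared, with the half-site in capitals (CGTCA where it lies on the other strand).

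Fos: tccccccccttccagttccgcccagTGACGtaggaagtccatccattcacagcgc
Fosb: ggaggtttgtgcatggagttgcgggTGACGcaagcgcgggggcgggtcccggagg
Junb: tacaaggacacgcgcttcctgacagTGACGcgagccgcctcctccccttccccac
Egr2: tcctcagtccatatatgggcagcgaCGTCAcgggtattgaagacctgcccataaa
Atf3: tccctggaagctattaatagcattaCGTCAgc

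These lie at chr12:85473799-85473853 on the plus strand for Fos, chr7:19310076-19310130 on the minus strand for Fosb, chr8:84978825-84978879 on the minus strand for Junb, chr10:67537789-67537843 on the plus strand for Egr2 and chr1:191183334-191183365 on the minus strand for Atf3. Counted back from the start, with -1 as the last base before it, the half-site spanned -66 to -62 in Fos, -60 to -56 in Fosb, -106 to -102 in Junb, -55 to -51 in Egr2 and -7 to -3 in Atf3. The Egr2 line also holds a CArG box, ccatatatgg, at -72 to -63. Of the 8 genes, Egr2 was the only one with a CArG box in these windows, against 1.81% of all genes. An Egr site, GCGNGGGCG on either strand, was found in Fosb and Fosl2 and in 6.27% of all genes. Neither the full CRE, TGACGTCA, which contains the half-site, nor an AP-1 site, TGANTCA, was found on either strand in the windows of these 8, against 2.03% and 8.97% of all genes. These counts describe letters in short windows and say nothing of binding.

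The 10 genes also share a compact structure. In the longest coding transcript of GENCODE M21, Jun, Junb, Jund and Ier2 had 1 exon, Egr1 and Egr2 had 2, and Fos, Fosb, Fosl2 and Atf3 had 4. All 10 therefore had 4 exons or fewer, against 31.7% of 20263 coding genes, whose median was 7 exons. Their transcripts were not short for it, with a median of 2536.5 bases against 2662 for all coding genes.

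AU-rich elements in the 3' UTR recruit mRNA decay factors. Their pentamer was not denser over the summed 3' UTRs of the group. The pentamer ATTTA occurred at 1.97 per kb of 3' UTR over the 10 genes and at 1.93 per kb over all genes. Long 3' UTRs weigh most in these values. Per gene the median was 2.5 pentamers in the group and 1 over all genes, with median 3' UTRs of 1193 and 831 bases. Fos had the densest set, with 4 pentamers in 815 bases or 4.91 per kb, and Ier2 had none in 755 bases. The nonamer TTATTTATT, the core of a strong element, was found in Fos and Fosl2 and in 6.94% of all genes with a 3' UTR. Both sites are shown with the nonamer in capitals.

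Fos: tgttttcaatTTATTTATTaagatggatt
Fosl2: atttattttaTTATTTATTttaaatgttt

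All 10 genes reached 1 CPM in both libraries, against 45.7% of all 23284 symbols. They were chosen with earlier results of these data known, and the part of that choice in this count was not tested. Together they held 1995.5 and 2076 CPM, or 0.199% and 0.209% of the counted reads, in replicates 1 and 2. Egr1 alone supplied 50.4% and 52.9% of the group's reads. Levels between genes are compared below as RPKM, which is CPM divided by the exon length in kb, since longer transcripts collect more reads.

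Egr1, a zinc finger factor switched on by growth factor and calcium signalling, was the highest member in both libraries. It was counted with 12499 and 13288 reads, at 1005 and 1098.5 CPM (mean 1052 ± 66.3, SD, n = 2), or 224 and 245 RPKM. Its RPKM lay at percentile 99.4 and 99.5 of all symbols with an exon length. Egr1 stood above Fos by 2.89-fold and 1.77-fold per kb in replicates 1 and 2, and its range did not overlap that of any other member. Egr2, a relative that binds the same kind of GC-rich site, was at 67.0 and 85.6 CPM, or 21.0 and 26.9 RPKM. The ratio of Egr1 to Egr2 per kb was similar in the libraries, at 10.7-fold and 9.11-fold.

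**Figure D1:**
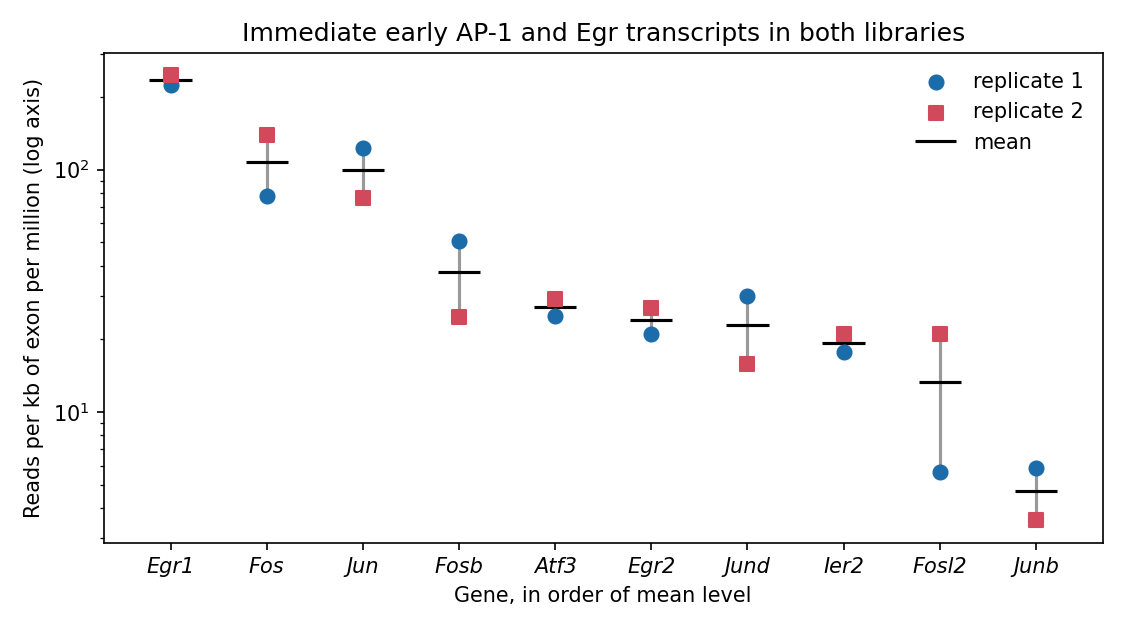
Level of each of the 10 genes in RPKM on a log axis, with 1 point per library (circle for replicate 1, square for replicate 2), a grey line for the range and a black bar for the mean. Egr1 is on top at 224 and 245, Fos and Jun exchange places between the libraries, and Fosl2 has the widest range on the log axis, from 5.63 to 20.9.

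Jun, the founding member of its family and an activating partner in AP-1, was at 390.1 and 243 CPM (317 ± 104, SD, n = 2), or 122 and 76.2 RPKM. Jund, which is often expressed without stimulation, was at 49.9 and 26.3 CPM, or 29.9 and 15.8 RPKM. Junb, which can restrain Jun, was the lowest member by its mean level, at 10.6 and 6.45 CPM, or 5.87 and 3.56 RPKM. Counting error alone gave exact 95% Clopper-Pearson intervals of 8.88 to 12.6 CPM and 5.10 to 8.05 CPM.

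The 3 Jun genes were all higher in replicate 1, and their proportions moved little. Jun was above Jund by 4.09-fold and 4.84-fold per kb in replicates 1 and 2, and above Junb by 20.9-fold and 21.4-fold. Genes on the opposite strand overlap the exons of all 3, and the strand setting of the counts is not given in the sources used here. Prdx2 overlaps Junb over 173 bases and was at 133 and 161 CPM, so the low Junb count is uncertain. Junos overlaps Jun over 232 bases and Gm11175 overlaps Jund over 877 bases, and neither was analysed here.

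Fos, the short-lived partner of Jun, was at 163 and 292 CPM (227 ± 90.8, SD, n = 2), or 77.4 and 138 RPKM. Fosb, which like Fos carries an activation domain, was at 193 and 93.1 CPM, or 50.9 and 24.6 RPKM. Fosl2 encodes Fra-2, a Fos protein without the strong activation domain of Fos, and was at 36.8 and 137 CPM, or 5.63 and 20.9 RPKM. The Fos genes did not move together: Fos and Fosl2 were higher in replicate 2 and Fosb in replicate 1. Fosb was above Fosl2 by 9.04-fold per kb in replicate 1 and by 1.18-fold in replicate 2. No read of Fosl1, the remaining Fos family gene, was counted in either library, where the limit of 3 counts per library was 0.241 and 0.248 CPM for counting error only. This count is uncertain too, since Ccdc85b overlaps Fosl1 over 1163 bases on the opposite strand.

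The make-up of AP-1 transcripts differed between the libraries. The Jun family took 54.1% of the summed reads per kb of both families in replicate 1 and 34.2% in replicate 2. Jun was the leading AP-1 transcript in replicate 1, at 41.9% against 26.5% for Fos, and Fos led in replicate 2, at 49.5% against 27.3% for Jun. The ratio of Fos to Jun per kb was 0.633 in replicate 1 and 1.82 in replicate 2. With 2 libraries an exact permutation test cannot go below p = 0.5, so no order of Fos and Jun was tested.

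**Figure D2:**
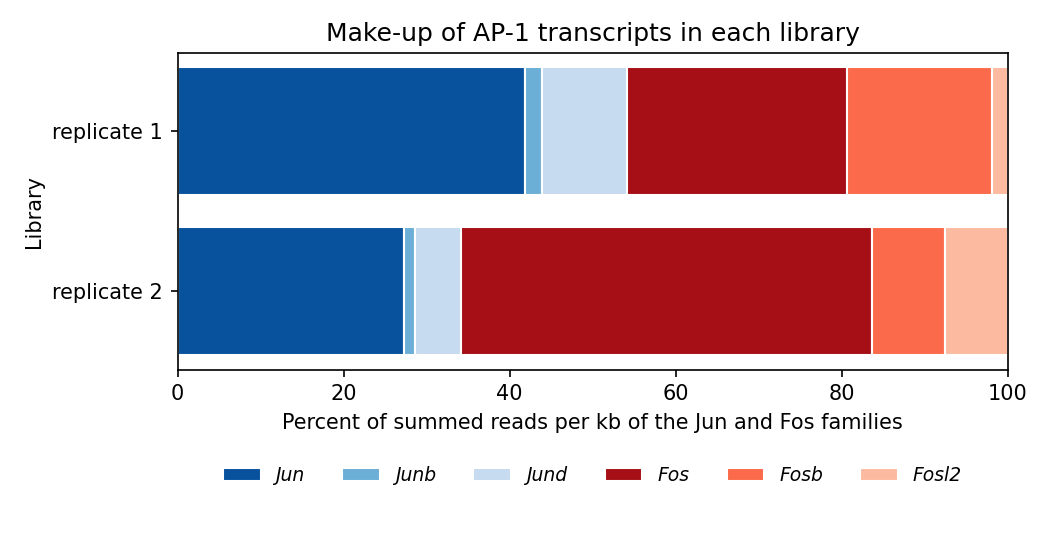
Stacked bars of the share of each Jun family gene (blue) and Fos family gene (red) in the summed reads per kb of both families, in percent, with 1 bar per library. The blue part covers 54.1% in replicate 1 and 34.2% in replicate 2, and the share of Fosl2 goes from 1.93% to 7.49%.

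Atf3, a stress-induced factor of the ATF group that can pair with Jun proteins, was at 53.8 and 62.8 CPM, or 24.97 and 29.2 RPKM. Ier2, a small nuclear protein gene used as a marker of the immediate early response, was at 26.8 and 31.99 CPM, or 17.6 and 21.0 RPKM. Both were slightly higher in replicate 2.

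By mean RPKM the order was Egr1, Fos, Jun, Fosb, Atf3, Egr2, Jund, Ier2, Fosl2 and Junb. Neighbours were apart beyond their ranges over the libraries at 2 steps, from Egr1 to Fos by 2.17-fold and from Jun to Fosb by 2.63-fold. The other 7 pairs of neighbours overlapped. Of the 10 genes, 4 kept their place when replicate 1 was left out and 3 when replicate 2 was left out.

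To set the libraries against each other, an exact binomial test, two-sided, was run on every gene's reads, with Benjamini-Hochberg adjustment over 13416 genes. It tests counting error between these libraries only. All 10 members differed, 6 with more in replicate 2 and 4 with more in replicate 1. Of all genes tested 85.5% differed, with 43.9% above in replicate 2 and 41.5% in replicate 1, so the members' count does not stand apart from the background. The median log2 ratio of replicate 2 over replicate 1 was 0.18 for the members and 0.04 for all genes tested.

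A difference over 2-fold was found for 2 of the 10 members, against 47.7% of all genes tested. That background is not matched for level. Without the test, the share over 2-fold was 74.0% from 1 to 10 CPM, 42.9% from 10 to 100 CPM and 12.2% from 100 to 1000 CPM. Fosl2 was 3.72-fold higher in replicate 2, with a log2 ratio of 1.89 (exact binomial test, adjusted p = 5.44e-164). Fosb was 2.07-fold higher in replicate 1, with a log2 ratio of -1.05 (exact binomial test, adjusted p = 5.77e-95). Fosl2, at a mean of 86.8 CPM, lay near the upper end of the band from 10 to 100 CPM. Of 6762 genes in that band, 19.5% had a ratio at least as large. The scatter narrowed with level, so this share may overstate how often genes near the level of Fosl2 were as far apart. For Fosb the same share was 10.5% of 2269 genes with a mean from 100 to 1000 CPM.

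Fos was 1.79-fold higher in replicate 2 (log2 ratio 0.84, exact binomial test, adjusted p = 6.27e-99), and Jun was 1.61-fold higher in replicate 1 (log2 ratio -0.68, adjusted p = 1.28e-92). Of the genes from 100 to 1000 CPM, 17.8% were at least as far apart as Fos and 25.5% at least as far apart as Jun. Jund and Junb were higher in replicate 1 by 1.90-fold and 1.65-fold, with adjusted p of 4.76e-21 and 0.000683 in the exact test. These 2 genes lay well inside the scatter of their level, since 45.9% and 81.1% of genes in their bands were at least as far apart.

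Egr1, Egr2, Ier2 and Atf3 were the most even between the libraries. They were 1.09-fold, 1.28-fold, 1.20-fold and 1.17-fold higher in replicate 2, with adjusted p of 1.70e-12, 2.09e-07, 0.0224 and 0.00454 in the exact test. Of the genes in their bands 62.1% for Egr1, 77.3% for Egr2, 83.1% for Ier2 and 85.2% for Atf3 were at least as far apart. The share for Egr1 was over 58 genes above 1000 CPM.

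**Figure D3:**
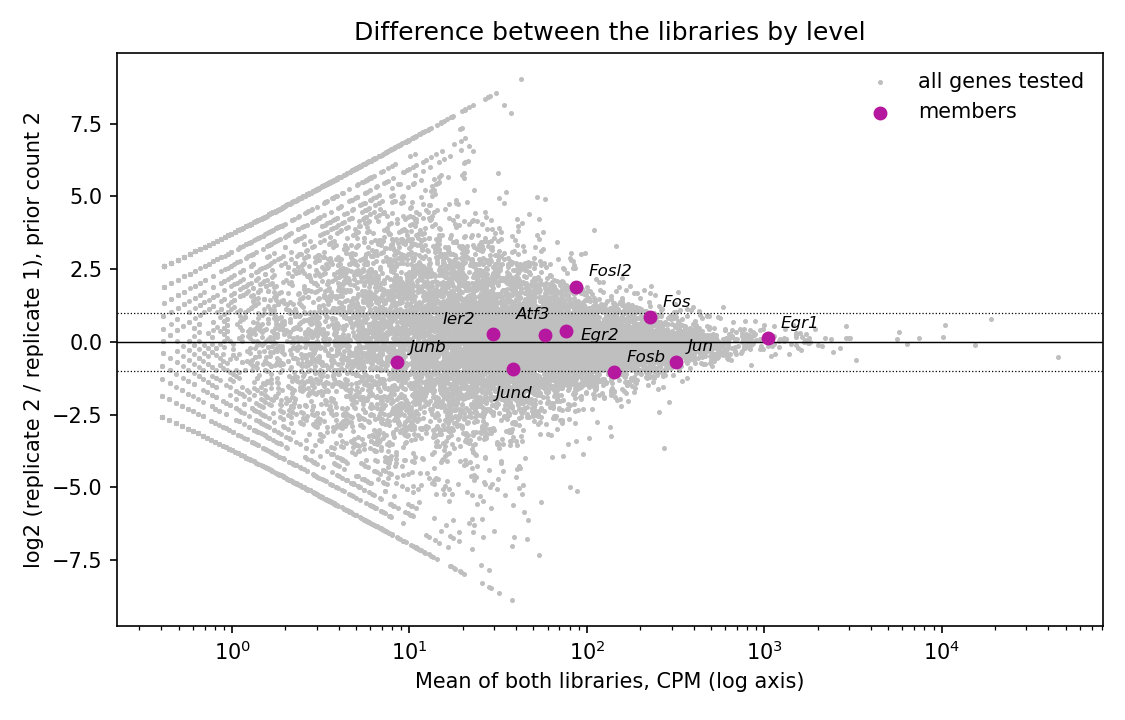
Log2 ratio of replicate 2 over replicate 1 against the mean level in CPM on a log axis, with all 13416 genes tested in grey and the 10 members in purple. Dotted lines mark a 2-fold difference. The scatter narrows toward high levels, Fosl2 at 1.89 and Fosb at -1.05 lie outside the dotted lines, and Egr1 lies close to 0 at 0.13.

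Markers of other cells also differed between the libraries. Of the mesenchymal list, all 8 genes with enough reads to test were higher in replicate 1, against 41.5% of all genes tested. In that list 5 of 9 reached 1 CPM in both libraries, and Twist1 had no read. Of the acinar markers 6 were higher in replicate 1 and 3 in replicate 2, and of the duct markers 4 were higher in replicate 1 and 1 in replicate 2. The 3 neural crest markers tested, Ret among them, were also higher in replicate 1, and Foxd3 had no read. Immune markers were mixed: of 8, Laptm5 (37.9 and 3.55 CPM) and Cd68 (18.4 and 7.69 CPM) were higher in replicate 1, Aif1 (0 and 6.70 CPM) was higher in replicate 2, and the defining marker Ptprc was at 0 and 0.0827 CPM. Of 8 endothelial markers none reached 1 CPM in both libraries, with Cdh5 (15.6 and 0.165 CPM) higher in replicate 1 and Esam (0 and 4.46 CPM) in replicate 2. The part of such cells in the differences between the libraries was not tested.

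The counts for the lists below are to be read against the shares over all genes. Of all symbols 45.7% reached 1 CPM in both libraries, and of all genes tested 85.5% differed between them. Of a list of 8 further bZIP genes, the Fosl1, Batf, Jdp2 and small Maf genes, 3 reached 1 CPM in both libraries and 4 had no read in either. The 3 were the small Maf genes, which lack an activation domain. Maff was at 58.4 and 23.0 CPM, Mafg at 68.9 and 51.1 CPM and Mafk at 6.91 and 5.95 CPM. Maff and Mafg were higher in replicate 1 (exact binomial test, adjusted p = 1.63e-43 and 2.38e-08), and Mafk did not pass the test (adjusted p = 0.418). Other annotated genes also overlap exons of Mafg, Mafk, Atf2, Nab2, Mkl2, Mef2d, Zfp36, Dusp1, Gadd45a, Ddit3, Krt7 and Alas2, whose counts are uncertain for that reason.

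In the wider ATF and CREB group 9 of 9 genes reached 1 CPM in both libraries, against 45.7% of all symbols. Of these, 3 were higher in replicate 1, 4 in replicate 2, and 2 did not pass the test. Atf4, the main effector of the integrated stress response, was at 206 and 254 RPKM, close to the level of Egr1. Atf1 was at 132 and 88.4 RPKM and Atf2, a partner of Jun, at 86.0 and 92.8 RPKM. The Atf1 count is less certain, since it shares sequence with a pseudogene and 75.1% of its words of 25 bases were unique to it.

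Relatives and partners of the Egr genes were low. Of 4 genes, Egr3 at 14.6 and 17.7 CPM and the corepressor gene Nab2 at 8.84 and 10.9 CPM reached 1 CPM in both libraries. Neither passed the test between libraries (adjusted p = 0.0681 and 0.132 in the exact test). Egr4 had 0 and 3 reads. Nab1, the other corepressor gene, was at 4.82 and 0.909 CPM and was higher in replicate 1 (exact binomial test, adjusted p = 9.07e-09).

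Transcripts of the factors and kinases that switch these genes on were present. Of 9 upstream transcription factor genes, 8 reached 1 CPM in both libraries. Srf, which encodes serum response factor, was at 63.4 and 54.9 RPKM, and its coactivator gene Mkl2 was at 49.8 and 47.8 RPKM. Mef2d, a calcium-responsive factor, was at 21.5 and 31.5 RPKM. Of these 9 genes, 3 were higher in replicate 1, 5 in replicate 2, and 1 did not pass the test.

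Of 12 MAP kinase cascade genes, 11 reached 1 CPM in both libraries. Mapk3, which encodes an ERK kinase, was at 98.2 and 110.3 RPKM, and Map2k7, which activates JNK, was at 66.9 and 45.4 RPKM. Map2k7 is uncertain, because another annotated gene overlaps its exons on the same strand. Each of the 12 passed the test, 7 with the higher level in replicate 1 and the other 5 in replicate 2. Of all genes tested 85.5% passed, so this count does not stand apart from the background.

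Genes that end the response were measured alongside. Of 13 feedback regulators, 9 reached 1 CPM in both libraries. Zfp36, whose protein binds AU-rich elements and speeds mRNA decay, was at 87.6 and 73.1 RPKM. Dusp1, a phosphatase that inactivates MAP kinases and is itself an immediate early gene, was at 75.0 and 71.0 RPKM and did not pass the test between libraries (adjusted p = 0.0846 in the exact test). Dusp10, a phosphatase of JNK and p38, was at 69.3 and 31.3 RPKM. Over the list 5 genes were higher in replicate 1, 4 in replicate 2, and 4 did not pass.

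Of 16 immediate early genes outside the AP-1 and Egr families, 13 reached 1 CPM in both libraries. Rhob, a small GTPase gene, was at 159 and 71.0 RPKM, Btg2, an antiproliferative gene, at 112 and 109 RPKM, and Klf10 at 46.8 and 45.3 RPKM. By their means Btg2 and Rhob lay just above Fos, and Klf10 lay between Jun and Fosb. Rhob was higher in replicate 1 (exact binomial test, adjusted p = 3.00e-214), while Btg2 and Klf10 did not pass (adjusted p = 0.233 and 0.302). Of the 15 tested, 4 were higher in replicate 1, 7 in replicate 2, and 4 did not pass.

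Heat shock genes, some of which also respond to cell handling, all reached 1 CPM in both libraries, 11 of 11, against 45.7% of all symbols. Hsp90ab1 was at 1101 and 1198 RPKM, Hspa8 at 154 and 134 RPKM and Hsph1 at 91.4 and 102 RPKM. Hspa1a, a strongly heat-inducible gene chosen after its values were seen, was at 8.18 and 5.54 RPKM. The counts of Hspa8, Hsp90ab1 and Hspa1a are uncertain, since only 22.1%, 73.8% and 33.0% of their words of 25 bases were unique to them. Over the list 4 genes were higher in replicate 1, 6 in replicate 2, and 1 did not pass.

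Of 9 genes that act with Atf3 in stress and DNA damage responses, 7 reached 1 CPM in both libraries. Gadd45a, a growth arrest gene, was at 198 and 155 RPKM and Gadd45g at 67.6 and 25.7 RPKM, both higher in replicate 1. Ddit3, which encodes the stress factor CHOP, was at 10.5 and 47.8 RPKM and was higher in replicate 2 (exact binomial test, adjusted p = 1.82e-62). Over the list 4 were higher in each library, where 85.5% of all genes tested differed. The 10 members had a median of 25.5 RPKM by their means, against 12.4 for the ATF and CREB group, 9.16 for the other immediate early genes and 78.1 for the heat shock genes.

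**Figure D4:**
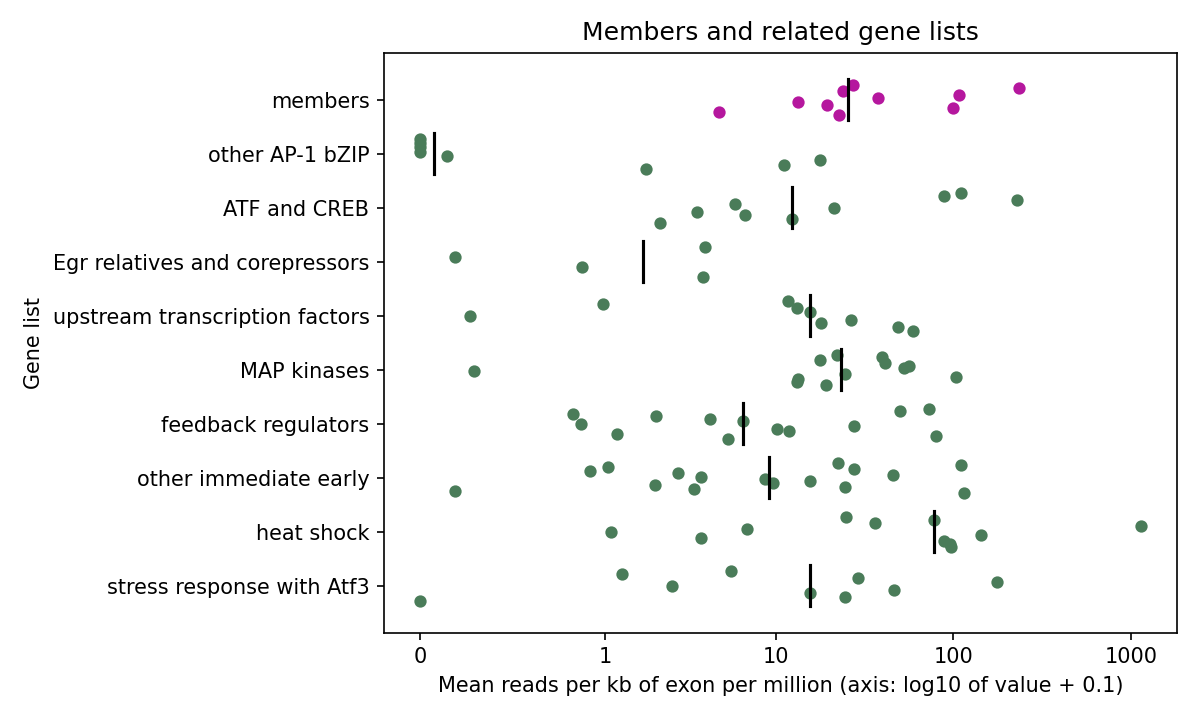
Mean level of each gene in RPKM, on an axis of log10 of the value + 0.1, with the 10 members in purple, 9 related lists in green, and a black bar at each list's median. The median of the members is 25.5, that of the heat shock genes is 78.1, that of the MAP kinases is 23.3 and that of the other immediate early genes is 9.16.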

How the data were processed

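Each library has 1 deposited file, a table of unnormalized counts by gene symbol. FastQC, cutadapt, TopHat2 2.0.4, Cufflinks 2.0.2, DESeq and the build mm9 are named, without roles, per the submitters' processing notes. The counting program, annotation, strand setting and treatment of multiply mapped reads are not given in the sources.

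Counts were scaled to CPM with TMM factors of 0.9956 and 1.0044 (edgeR 4.0.16, R 4.3.3). Log2 ratios used a prior count of 2. Genes whose reads summed to 10 or more were tested across all genes with a two-sided exact binomial test on the scaled library sizes, adjusted by Benjamini-Hochberg, with a threshold of 0.05 (SciPy 1.17.1). The test was checked on simulated data. RPKM used union exon lengths of the GENCODE M21 basic set on GRCm38, matched for 97.9% of symbols. Overlaps between exons of different genes were taken from the full GENCODE M21 set on GRCm38. The submitters name mm9, so the exons behind the counts may differ. Reads are not independent molecules, so intervals cover counting error only.

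The members and lists were chosen with earlier results of these data known. Named were all members, every gene of lists of up to 5, the 3 highest by RPKM of longer lists, and the highest marker by CPM. Some genes of the lists are not reported here by name. Genes given only as zero or near-zero examples lie outside this rule and were chosen after their values were seen, as were Ccdc85b, Cd68, Aif1, Esam, Prdx2, Junos, Gm11175 and Hspa1a. Promoter windows are RefSeq's, on GRCm38.p6.

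Alternatives were other scalings (column totals, DESeq2 1.42.0 size factors, upper quartiles), totals without Rn45s or the 10 most abundant genes, other filters, limits, prior count and exon lengths, and leaving out each library.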

Additional observations from a re-analysis of the deposited data

How the results depend on the processing

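All 10 members kept the direction of their log2 ratio under each scaling and the other prior count, and stayed past the test's threshold under each scaling (the test uses no prior count), and all 10 were detected at limits of 0.5 and 5 CPM and without either library. The count of members differing was 10 under every scaling and filter and 2 where a difference over 2-fold was asked for as well. The members' median log2 ratio was between 0.16 and 0.20. Their summed level, 2036 CPM as a mean, was 2132 CPM with Rn45s left out of the totals and 2336 CPM without the 10 most abundant genes, since both remove reads from the totals, and 1995.5 to 2076 CPM with either library alone. The Jun family share, 44.2% as a mean, was 34.2% to 54.1% with either library alone, 49.2% with exon lengths of the full annotation and 44.0% without division by length. The order of members was the least stable result: 4 kept their place without division by length, 4 with the full annotation and 3 to 4 with 1 library left out, while Egr1 was first in all of these. Leaving out a library gave no test between libraries. No paired analysis was possible because there is only 1 group. With replicate 2 left out, 8 mesenchymal markers reached 1 CPM in place of 5, since the markers were lower in that library. At these depths 3 counts are 0.241 and 0.248 CPM, and lower levels cannot be told from 0.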
